A study of Tremella fuciformis and Annulohypoxylon stygium and Tremella fuciformis
Annulohypoxylon stygium with 5 samples.

Results

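T. fuciformis genes were followed in mixed mycelia of Tremella fuciformis and Annulohypoxylon stygium (the dual library, 1 week after the fungi had met) and in T. fuciformis mycelia grown alone for 2 weeks (the library alone). Both fungi were wild type, each group was 1 library of Illumina reads from mycelial RNA, and the series holds 5 libraries. T. fuciformis mycelia sampled 1 week after interaction with A. stygium (the library after interaction) gave values that are set beside them. The A. stygium libraries, 1 alone at 1 week and 1 sampled 1 week after interaction, served to tell the transcripts of the fungi apart. A unigene, that is a sequence assembled from the reads, was taken as T. fuciformis when its larger FPKM value in the T. fuciformis libraries reached 1 and also reached 10 times its larger value in the A. stygium libraries. FPKM counts fragments per kilobase of sequence, scaled to the library. This rule took 15354 of 42507 unigenes, and the contigs of 1 assembly cluster were summed, which left 8930 genes. Of these, 8293 reached 1 FPKM in the dual library or alone and were compared.

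T. fuciformis is the silver ear, a jelly fungus of the Basidiomycota that is eaten and is known for a mannose-rich extracellular polysaccharide. It breaks down wood poorly by itself and is cultivated together with A. stygium, a wood-degrading ascomycete. Mixed mycelia hold RNA of both fungi, so a level measured in them depends on the share of each partner as well as on each gene.

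T. fuciformis unigenes made up 36.4% of the summed FPKM of the dual library, 99.2% after interaction and 99.2% alone. Values were therefore rescaled so that T. fuciformis unigenes summed to 1000000 in each library, by a factor of 4.58 in the dual library and 1.57 alone. All levels below are rescaled FPKM unless stated, and a log2 ratio is that of (dual + 1) over (alone + 1). The nearest Nr database hit lay in a genus of Tremellomycetes, the class of T. fuciformis, for 5918 of 6879 compared genes whose hit named a genus. Only 19 lay in Xylariales, the order of A. stygium. A. stygium unigenes held 59.0% of the dual library. The highest A. stygium FPKM of each gene, scaled to that fungus's share of the dual library, came to 0.160% of T. fuciformis signal there, and to at most 1.65% of the dual value of any gene counted as 4-fold higher. The assignment rule by itself keeps these shares small. They rest on the A. stygium libraries, so A. stygium transcripts that are higher in mixed mycelia than in those libraries are not covered. Near the limit of the rule, 25 unigenes lay between 10 and 20 times the A. stygium value, and 16 between 5 and 10 times were left out.

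With 1 library per group no spread between replicates could be measured and no test was possible. The values describe these libraries. Culture age and mixing cannot be told apart, since the mycelia alone were 2 weeks old while the mixed mycelia were sampled 1 week after meeting. A change in a cell type's share of the mycelium and a change in RNA per cell cannot be told apart either. Read depth is unknown from FPKM, and low values are less certain.

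A gene is called past 4-fold or past 2-fold when its log2 ratio reached 2 or 1 in size, upward when it was higher in the dual library than alone and downward when it was lower. Of the 8293 genes, 402 (4.85%) were past 4-fold upward and 182 (2.19%) downward. At 2-fold the counts were 976 (11.8%) higher and 857 (10.3%) lower, and the median log2 ratio of all genes was -0.18. The 402 higher genes held 8.96% of T. fuciformis signal in the dual library, against 1.80% after interaction and 0.634% alone. The 182 lower genes held 0.380%, 0.969% and 1.90% in the same libraries. Both sets were picked by the dual-to-alone ratio, so their shares in the dual library and alone differ by selection. The assignment rule also took genes under 1 FPKM alone when they reached 1 FPKM after interaction. With assignment on the mycelia grown alone, 266 genes were past 4-fold upward and 189 downward. Most of the lower genes were weak ones: 145 of the 182 were listed at 0 in the dual library, and 39 of the 402 higher genes were listed at 0 alone. Among the 7841 genes listed above 0 in both libraries, 363 were past 4-fold upward and 37 downward. Without rescaling, the median log2 ratio was -1.53 and the counts were 131 past 4-fold upward and 1485 downward, so every direction below is relative to T. fuciformis RNA as a whole.

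**Figure D1:**
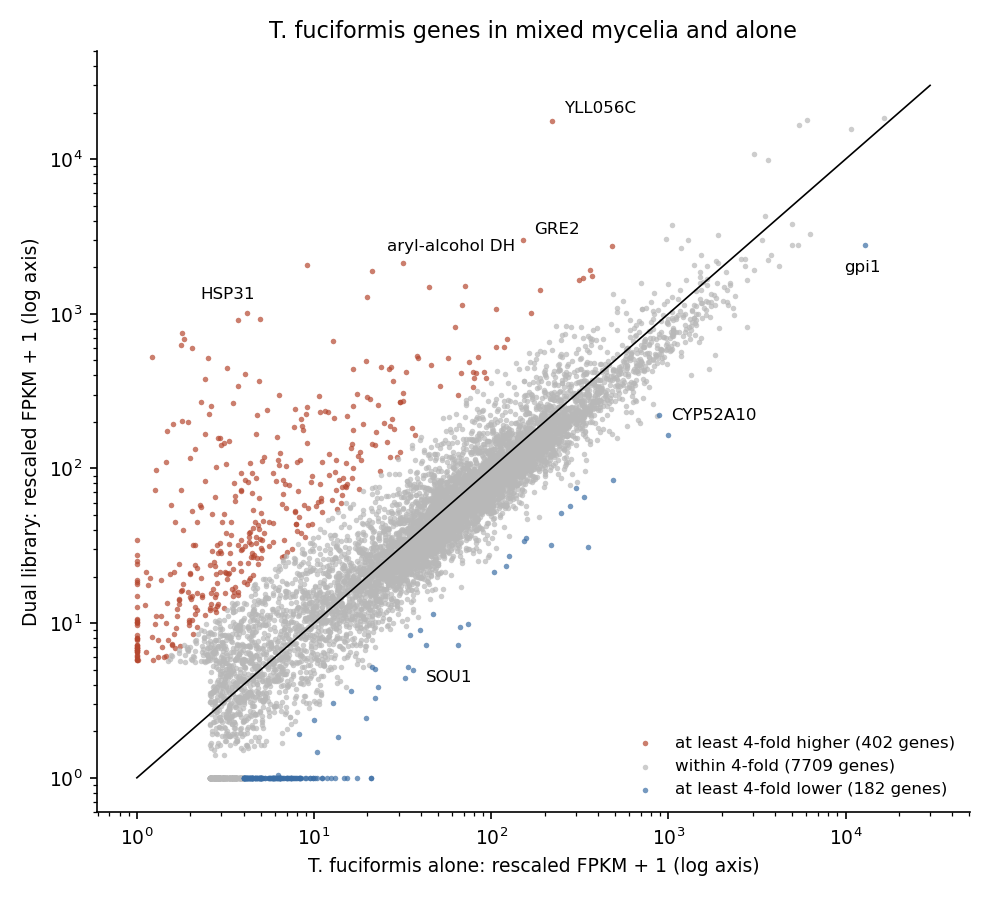
Each point is 1 T. fuciformis gene, with its rescaled FPKM plus 1 in the dual library on the vertical axis and alone on the horizontal axis, both log axes, and the line marks equal levels. The 402 higher genes (red) reach up to the YLL056C gene CL7112, at 17627 in the dual library against 219 alone, while most of the 182 lower genes (blue) lie on the bottom row, where 145 are listed at 0 in the dual library.

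The share of genes past 4-fold was counted by what is known of them. Of the 4326 compared genes with a SwissProt name (e-value at most 1e-10), 148 (3.42%) were past 4-fold upward and 17 (0.393%) past 4-fold downward. Of the 1307 genes with neither a SwissProt name nor an Nr hit, 134 (10.3%) were higher and 112 (8.57%) lower. Weak genes were past 4-fold more often than strong ones. Among genes whose higher FPKM was between 1 and 10, 8.92% were higher and 6.65% lower, against 2.63% and 0.692% among the 1446 genes of at least 100 FPKM. Among the genes 4-fold higher, 179 of 261 hits with a genus (68.6%) lay in Tremellomycetes, against 86.0% of all compared genes, and 1 lay in Xylariales. The part of level and of the available hits in these shares was not tested.

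Among the named genes, the largest differences were oxidoreductases, a stress chaperone and mobile elements, higher in the dual library. Search words in SwissProt names sorted the genes into 51 function lists. Of all genes with a SwissProt name, 9.06% were past 2-fold upward and 5.02% downward. Higher members were most frequent in lists of reductases, alcohol and aldehyde dehydrogenases, and sugar transporters. The lists of ribosomal proteins, sterol synthesis, respiration, amino acid synthesis and the cytoskeleton had medians below that of all genes, with at most 1 member each past 4-fold.

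A family named for YLL056C, a Saccharomyces cerevisiae protein of uncharacterized function, held large increases. CL7112 stood at 17627 in the dual library, 276 after interaction and 219 alone, a log2 ratio of 6.33. It was the second most abundant named T. fuciformis gene of the dual library. Unigene611, of the same name, had 2073 rescaled FPKM in the dual library, against 15.9 after interaction and 8.11 alone (log2 ratio 7.83), and Unigene3503 had 1894 in the dual library, 11.96 after interaction and 20.2 alone (log2 ratio 6.48). All 3 genes were far higher in the dual library than in either other library. The other two of the 5 YLL056C genes, Unigene606 and Unigene12986, had log2 ratios of 0.16 and -0.27. Summed over the 5 genes, the family reached 21604 in the dual library, 308 after interaction and 257 alone. In A. stygium, CL7112 had at most 1.15 FPKM, against 3848 FPKM before rescaling in the dual library.

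HSP31 (Unigene3062), whose S. cerevisiae namesake is a DJ-1 family protein that acts on methylglyoxal and misfolded proteins, reached 1005 rescaled FPKM in the dual library, against 24.2 after interaction and 3.16 alone. Its log2 ratio was 7.92. CL3464 stood at 904 in the dual library, 14.8 after interaction and 2.70 alone, a log2 ratio of 7.93, the largest of any named gene. Its SwissProt name is that of the flocculation protein FLO11, a serine- and threonine-rich wall protein, while its Nr hit is a nitroreductase. The FLO11 name was shared by 176 compared genes, of which 11 were past 4-fold upward and 2 downward. The hydrolase YNR064C (Unigene307), of a family of alpha/beta-hydrolases, had 339.5 rescaled FPKM in the dual library, against 4.84 after interaction and 2.72 alone (log2 ratio 6.52).

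**Figure D2:**
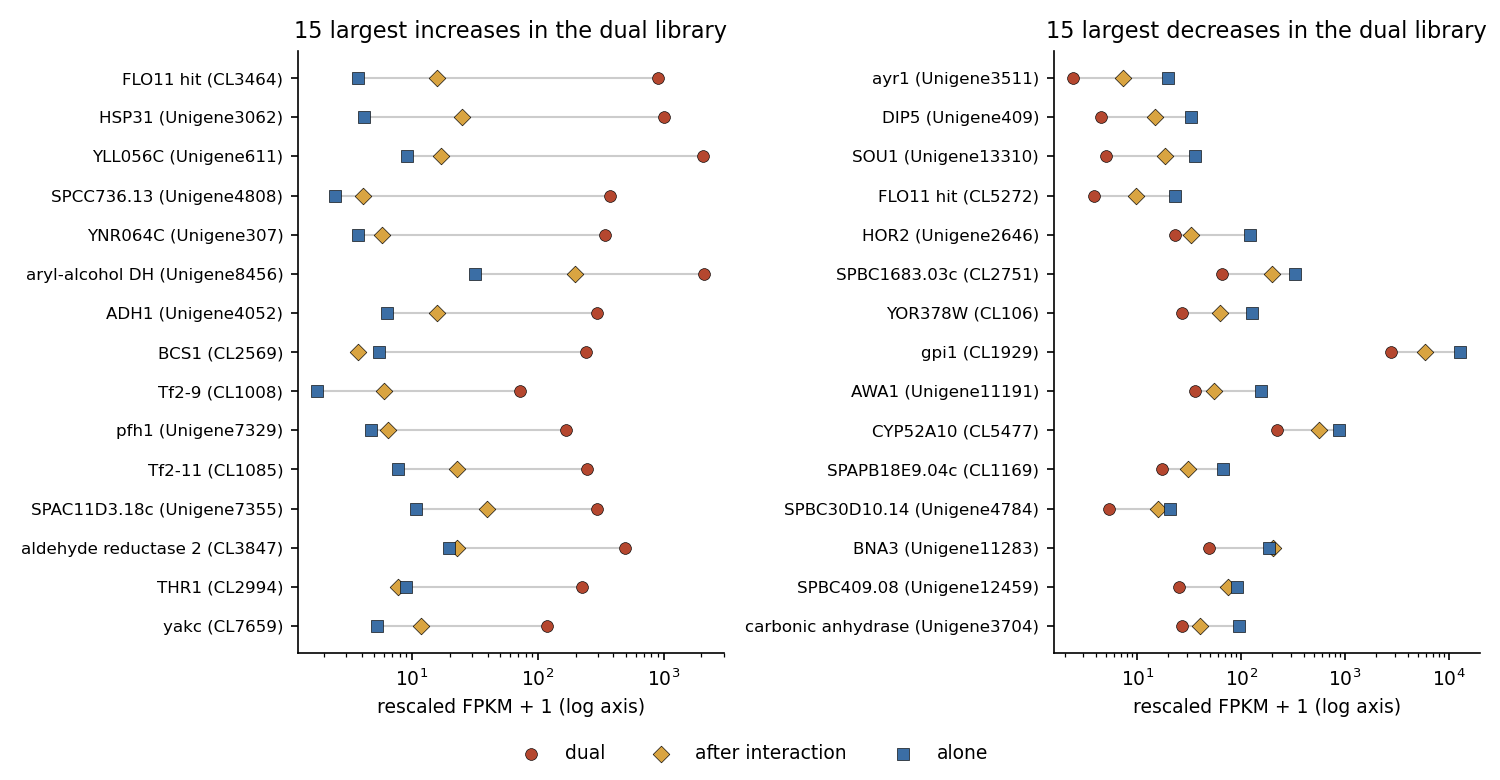
Rescaled FPKM plus 1 (log axis) in the dual library (red circles), after interaction (yellow diamonds) and alone (blue squares) for the 15 largest increases and the 15 largest decreases among named genes, 1 per SwissProt entry. Increases run from a log2 ratio of 7.93 to 4.50, decreases from -3.03 to -1.84, and the value after interaction lies between those of the dual library and alone for 27 of the 30 genes. The genes were picked for extreme dual-to-alone ratios, which by itself favours a value in between. No intermediate response can be read from the count.

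Reductases that turn aldehydes and ketones into alcohols with NADPH made up much of the rest. The aldo-keto and aryl-alcohol reductase list had 25 compared genes, of which 10 (40%) were past 2-fold upward, 5 of them past 4-fold, while 2 were past 2-fold downward. The list summed to 4702 in the dual library, 1297 after interaction and 1015 alone, and its median log2 ratio was 0.09. The aryl-alcohol dehydrogenase Unigene8456, an enzyme type that in wood-rotting fungi reduces aromatic aldehydes, had 2115 in the dual library, 197 after interaction and 30.9 alone (log2 ratio 6.05). It was the largest contributor to the sum. CL3847, an aldehyde reductase 2, had 493 rescaled FPKM in the dual library, against 21.9 after interaction and 18.7 alone (log2 ratio 4.65). CL2283, of the same name, had 725 in the dual library, 315 after interaction and 251 alone (log2 ratio 1.53).

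The aldo-keto reductase yakc of Schizosaccharomyces pombe named 3 genes. CL7659 had 118 rescaled FPKM in the dual library, against 10.9 after interaction and 4.24 alone (log2 ratio 4.50), and CL5382 had 529 in the dual library, 62.4 after interaction and 37.1 alone (log2 ratio 3.80). Both were past 4-fold upward, and the third gene of that name was within 2-fold. The methylglyoxal reductase GRE2 (Unigene5609), which detoxifies a reactive by-product of glycolysis in S. cerevisiae, had 2990.2 rescaled FPKM in the dual library, against 266 after interaction and 151 alone (log2 ratio 4.30). It was the eighth most abundant named gene of the dual library. Neither the aldo-keto list nor the short-chain list below holds it. Of the 3 genes named GRE2, 2 were past 2-fold upward and 0 downward, and 1 was past 4-fold upward. Other genes of these families were close to their level alone, such as the aldehyde reductase 1 CL2212 at 162 in the dual library, 148 after interaction and 182 alone.

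Short-chain and quinone oxidoreductases, mostly uncharacterized in the yeasts that name them, had 40 compared genes. Of these, 15 (37.5%) were past 2-fold upward (9 of them past 4-fold) and 1 was past 2-fold downward. The median log2 ratio was 0.64. C736.13 (Unigene4808) had 375 rescaled FPKM in the dual library, against 3.06 after interaction and 1.43 alone (log2 ratio 7.27), and CL4582, of the same name, had 31.4 in the dual library, 7.22 after interaction and 2.31 alone (log2 ratio 3.29). C2F3.05c (CL721) had 289 rescaled FPKM in the dual library, against 27.6 after interaction and 18.9 alone (log2 ratio 3.87). The quinone oxidoreductase ZTA1 (Unigene12167) was within 2-fold, at 365 in the dual library, 341 after interaction and 189 alone. Trihydroxynaphthalene reductase THR1 (CL2994), named for a melanin enzyme but with an Nr hit to a fatty acid synthesis reductase, had 222 rescaled FPKM in the dual library, against 6.69 after interaction and 7.98 alone (log2 ratio 4.64).

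Alcohol and aldehyde dehydrogenases, listed together with pyruvate decarboxylase and acetyl-coenzyme A synthetase, had the highest list median, 0.92 over 25 genes. At least 2-fold higher were 10 of them (40%), 5 past 4-fold, and none was past 2-fold downward. The list is not a single route, since 8 of its members are also in one of the reductase lists above, and the other 17 had a median of 0.92 with 7 past 2-fold upward. Alcohol dehydrogenase 1 (Unigene4052), which makes ethanol from acetaldehyde, had 297 in the dual library, 14.7 after interaction and 5.31 alone (log2 ratio 5.56). The aldehyde dehydrogenases aldA, which oxidize aldehydes to acids, had 339.9 rescaled FPKM in the dual library, against 41.01 after interaction and 50.7 alone for CL2486 and 415 in the dual library, 321 after interaction and 81.4 alone for Unigene13987, log2 ratios of 2.72 and 2.34. The most abundant member, pyruvate decarboxylase PDC1 (Unigene11677), which forms the acetaldehyde, was near its level alone at 1849.5 rescaled FPKM in the dual library, against 1399.7 after interaction and 2116 alone. The list as a whole summed to 4839 in the dual library, 3676 after interaction and 3910 alone.

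In central carbon metabolism fewer genes were past 2-fold upward. None of 14 glycolysis genes was past 2-fold upward and 1 was past 2-fold downward, with a median of -0.14. Triosephosphate isomerase (CL2899), the most abundant of them, had 3305 in the dual library, 5153 after interaction and 6338 alone (log2 ratio -0.94), while the enolase gene CL3712 had 1554 rescaled FPKM in the dual library, against 735 after interaction and 992 alone (log2 ratio 0.65). The other enolase genes of that name, CL557 and Unigene5976, had log2 ratios of -0.52 and -1.73, and Unigene5976 was the glycolysis member past 2-fold downward. The respiratory chain and ATP synthase list had a median of -0.54 over 39 genes, with 1 member past 2-fold upward and 1 downward. Cytochrome c oxidase subunit 6A (Unigene4837) had 1115 in the dual library, 1263 after interaction and 1729 alone (log2 ratio -0.63). ATP synthase subunit d (CL7909) was the exception at 811 rescaled FPKM in the dual library, against 369.5 after interaction and 397 alone. Of the trehalose, glycogen and polyol genes (21 compared, median 0.37), 3 were past 2-fold upward and 1 downward. A NADP-dependent mannitol dehydrogenase (CL1484) had 74.4 in the dual library, 31.1 after interaction and 13.3 alone, and the trehalase NTH2 (CL8126), which splits trehalose into glucose, had 89.6 rescaled FPKM in the dual library, against 51.9 after interaction and 41.5 alone.

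Sugar transporters were the largest list with frequent higher members. Of 70 compared genes, 26 (37.1%) were past 2-fold upward, 10 of them past 4-fold, and 6 were past 2-fold downward. The median log2 ratio was 0.36, and the list summed to 4771 in the dual library, 4299 after interaction and 3426 alone. The hexose transporter HXT10 (Unigene12681) had 141 in the dual library, 39.1 after interaction and 21.01 alone (log2 ratio 2.69). The general alpha-glucoside permease MAL11 (Unigene11092), a carrier of maltose-like sugars, had 71.6 rescaled FPKM in the dual library, against 27.6 after interaction and 12.4 alone (log2 ratio 2.44). The most abundant member, CL1021, carries the SwissProt name quinate permease and an Nr hit to a galactose transporter and had 1204 in the dual library, 953 after interaction and 550.0 alone (log2 ratio 1.13). All 3 maltose permease MAL31 genes and all 3 low-affinity glucose transporter HXT3 genes were past 2-fold upward, led by the HXT3 gene Unigene4682 at 424 rescaled FPKM in the dual library, against 72.4 after interaction and 107 alone. The MAL31 genes were weak, with sums of 55.6, 55.2 and 6.27 in the same libraries. None of the 3 high-affinity glucose transporter HXT2 genes or the 5 STL1 genes was past 2-fold. Of 13 lactose permease genes, 4 were past 2-fold upward and 2 downward (median -0.22). The 6 lower members included the UDP-galactose transporter HUT1-A (Unigene11261), a Golgi protein that the search words also took, at 25.5 in the dual library, 40.3 after interaction and 53.1 alone.

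Plant wall breakdown was at a low level in all 3 T. fuciformis libraries. Its 22 compared genes summed to 534 in the dual library, 530.4 after interaction and 478 alone, and 4 were past 2-fold upward and 1 downward. A beta-glucosidase (CL4991), which frees glucose from cellobiose, had 45.6 rescaled FPKM in the dual library, against 42.6 after interaction and 16.2 alone. The 4 laccases and multicopper oxidases were all within 2-fold.

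Metal carriers and vacuolar pumps gave a small group of large differences. Of 42 genes for metal, phosphate and sulfate transport, 4 (9.52%) were past 4-fold upward and none downward, although the median was -0.08. The upward and downward shares at 4-fold were 4.85% and 2.19% for all genes. For those with a SwissProt name they were 3.42% and 0.393%. YCF1, a vacuolar pump that in S. cerevisiae carries glutathione conjugates and cadmium, named 3 genes, all past 2-fold upward. CL796 had 691 in the dual library, 147 after interaction and 122 alone (log2 ratio 2.49), and CL1809 had 94.3 rescaled FPKM in the dual library, against 19.6 after interaction and 12.2 alone (log2 ratio 2.85). The copper chaperone cox17 (Unigene2284), which delivers copper to cytochrome c oxidase, had 1752 in the dual library, 563 after interaction and 368 alone (log2 ratio 2.25). The phosphate transporter PHO84 (Unigene3813) was high in both libraries that had met A. stygium, at 60.6 rescaled FPKM in the dual library, against 73.05 after interaction and 10.01 alone.

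Other stress genes were mixed. The catalase-peroxidase katG1 (Unigene5430), which removes hydrogen peroxide, had 252 in the dual library, 120.1 after interaction and 15.6 alone (log2 ratio 3.93). It was the only one of 11 peroxide and superoxide genes past 2-fold, and manganese superoxide dismutase (CL2280) had 900.2 rescaled FPKM in the dual library, against 1127 after interaction and 686 alone. Among 26 glutathione and thioredoxin genes (median 0.31), 4 were past 2-fold upward and 1 downward, with glutaredoxin-1 (Unigene2305) at 134 in the dual library, 68.9 after interaction and 34.9 alone.

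Of 46 heat shock proteins and chaperones, 4 (8.70%) were past 2-fold upward and none downward, but the median was -0.34. The upward share was near the 9.06% of genes with a SwissProt name. Beside HSP31, the largest difference was that of BCS1 (CL2569), a mitochondrial protein that completes complex III of the respiratory chain, at 239 rescaled FPKM in the dual library, against 2.71 after interaction and 4.45 alone (log2 ratio 5.46). HSP90 (Unigene10276) had 1118 in the dual library, 1201 after interaction and 1435 alone, and the HSP70-type sks2 (CL3546) had 314 rescaled FPKM in the dual library, against 421 after interaction and 566 alone. Of the 22 genes in the cytochrome P450 and monooxygenase list, 20 were within 2-fold. The exceptions were DIT2 (Unigene11669) at 1646 in the dual library, 1569 after interaction and 311 alone and CYP52A10 (CL5477), of a family that hydroxylates fatty acids and alkanes, at 219.6 rescaled FPKM in the dual library, against 565 after interaction and 882 alone. Their log2 ratios were 2.40 and -2.0. The list did not hold 3 genes named for a bifunctional P-450:NADPH-P450 reductase. Of these, 2 were past 2-fold upward and 0 downward, with a median of 1.21.

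Genes of protein synthesis were mostly within 2-fold. The 71 cytosolic ribosomal proteins had the lowest list median, -0.63, although only 2 (2.82%) were past 2-fold downward, below the 10.3% of all genes, and none upward. Together they summed to 46786 in the dual library, 55882 after interaction and 70952 alone. RPL37A (CL6913), the most abundant, had 1589.8 in the dual library, 1781 after interaction and 2227 alone, and RPL10 (CL3885) had 1048 rescaled FPKM in the dual library, against 720.0 after interaction and 814 alone. Ribosome biogenesis (50 genes, median -0.22), translation factors (53, -0.28) and RNA polymerases (39, -0.11) lay closer to the median of all genes, and 1, 1 and 0 of their members were past 2-fold downward. Amino acid synthesis (73 genes) had a median of -0.47, with 2 members past 2-fold upward and 4 downward. The ketol-acid reductoisomerase of branched-chain amino acids, ilv-2 (CL1141), had 115 in the dual library, 174 after interaction and 257 alone, whereas the cytosolic aspartate aminotransferase AAT2 (CL5876) had 186 rescaled FPKM in the dual library, against 37.6 after interaction and 7.56 alone (log2 ratio 4.45).

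**Figure D3:**
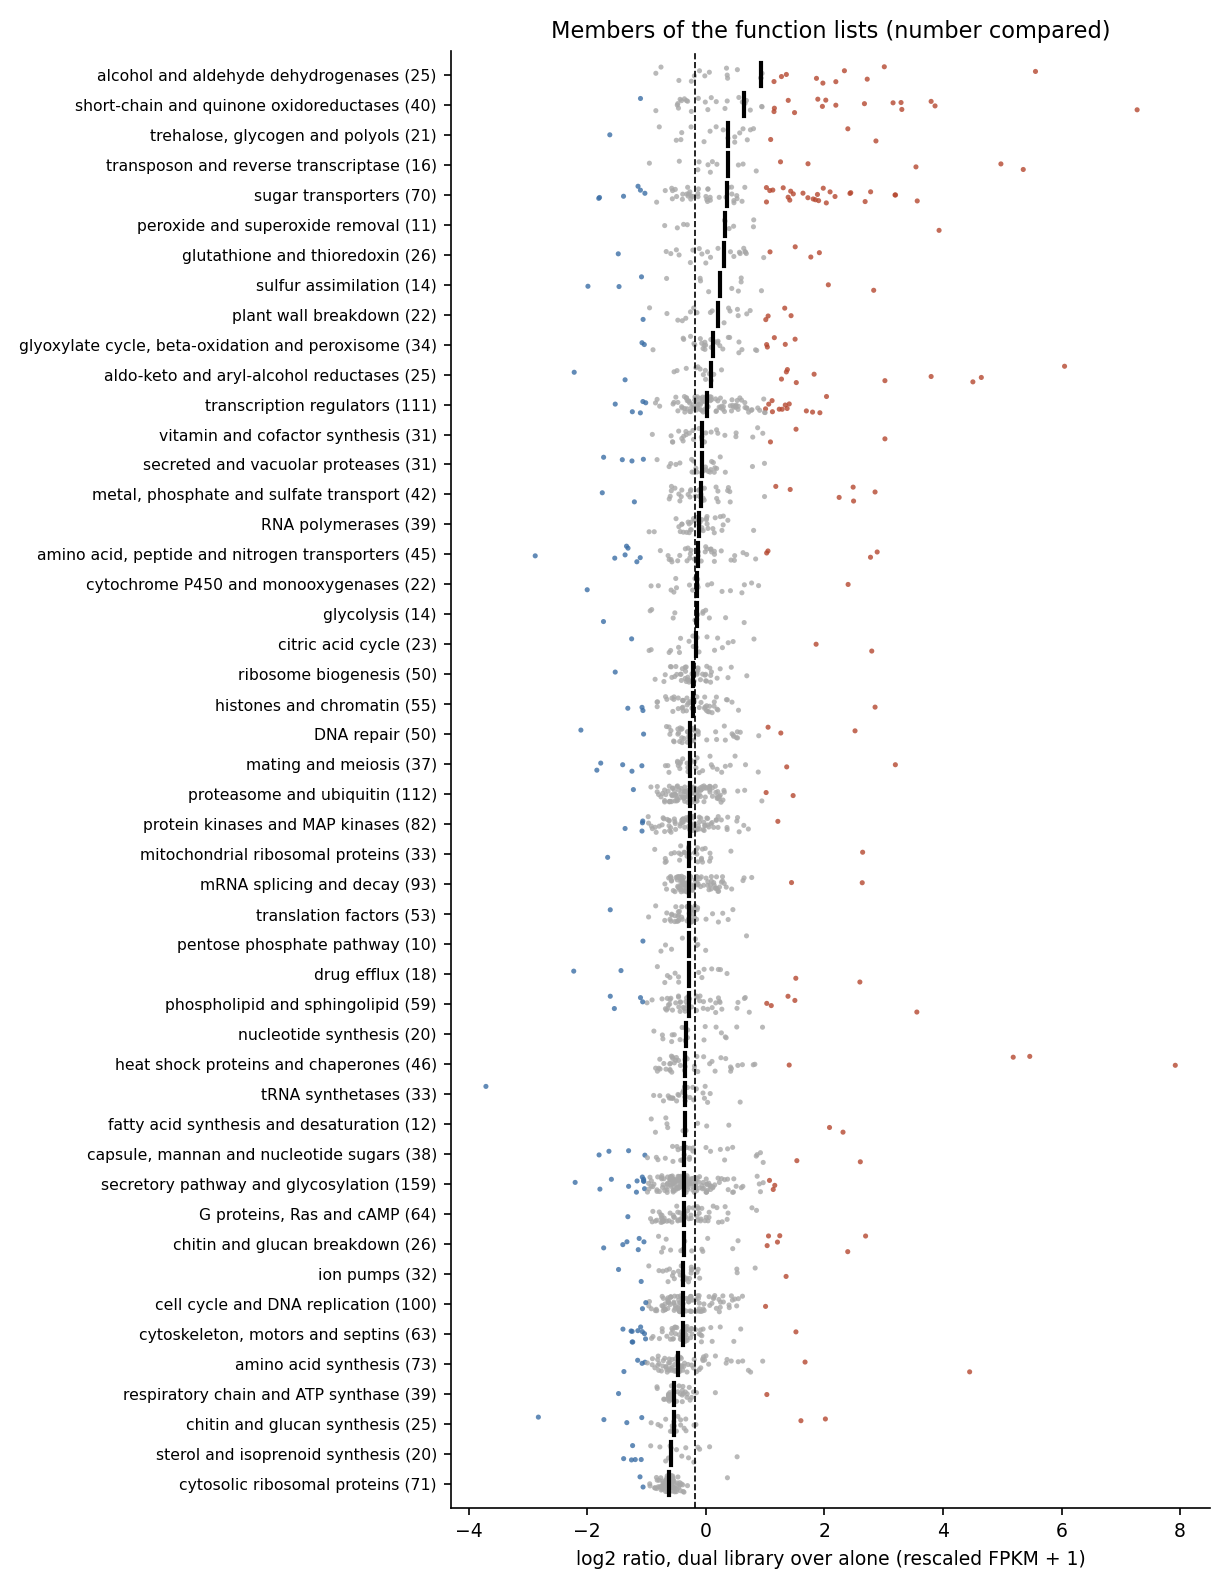
Each point is the log2 ratio of 1 gene, dual library over alone, in a function list of at least 10 compared genes, with points past 2-fold upward in red and downward in blue. Thick bars are list medians, from 0.92 for alcohol and aldehyde dehydrogenases to -0.63 for cytosolic ribosomal proteins, and the dashed line is the median of all genes, -0.18.

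The cytoskeleton list, which holds the filaments and motors of hyphal growth and division, had 63 compared genes, of which 10 (15.9%) were past 2-fold downward, against 10.3% of all genes and 5.02% of those with a SwissProt name, and 1 upward (median -0.39). Septins, the proteins that form rings at the site of cell division, were lower for spn2 (Unigene9064) at 175 in the dual library, 332 after interaction and 463 alone, spn1 (Unigene933) at 178 rescaled FPKM in the dual library, against 327 after interaction and 428 alone and spn4 (Unigene13385) at 275 in the dual library, 447 after interaction and 647 alone. Their log2 ratios were -1.40, -1.26 and -1.23. Tubulin beta (CL2263), a subunit of microtubules, had 266 rescaled FPKM in the dual library, against 481 after interaction and 632 alone, and tubulin alpha-1A (CL3324) had 532 in the dual library, 974 after interaction and 1179 alone. Both were more than 2-fold lower in the dual library. Actin (Unigene364) had 1218 rescaled FPKM in the dual library, against 1799 after interaction and 2031 alone, a log2 ratio of -0.74. A subunit of the Arp2/3 complex that branches actin filaments, arc1 (Unigene7335), was the member that was past 2-fold upward, at 742 in the dual library, 259 after interaction and 258 alone. The 100 cell cycle and DNA replication genes had a median of -0.39, with 1 past 2-fold upward and 2 downward.

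The most abundant gene among the 15 largest decreases was gpi1 (CL1929), named for a subunit of the enzyme that starts the synthesis of glycosylphosphatidylinositol anchors, which hold proteins at the cell surface. It had 2796 rescaled FPKM in the dual library, against 5936 after interaction and 12895 alone (log2 ratio -2.20). In the secretory pathway and glycosylation list to which it belongs, 11 of 159 genes (6.92%) were past 2-fold downward and 3 upward (median -0.37). That downward share was below the 10.3% of all genes but above the 5.02% of those with a SwissProt name. The list summed to 19127 in the dual library, 24532 after interaction and 33372 alone, gpi1 included. The sorting protein VPS1 (CL594) had 113 in the dual library, 156 after interaction and 342 alone, and the anchor-attaching subunit gpi16 (CL790) had 48.7 rescaled FPKM in the dual library, against 87.1 after interaction and 111 alone. The disulfide isomerase tigA (CL1430) was higher, at 534 in the dual library, 397 after interaction and 242 alone.

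Over the 38 capsule, mannan and nucleotide sugar genes, 4 (10.5%) were past 2-fold downward and 2 upward, with a median of -0.36. The downward share was 10.3% for all genes and 5.02% for those with a SwissProt name. The mannose-1-phosphate guanyltransferases, which make the GDP-mannose that feeds mannan and capsule polysaccharide, had 35.4 rescaled FPKM in the dual library, against 89.9 after interaction and 126 alone for CL3778 and 90.7 in the dual library, 181 after interaction and 284 alone for MPG1 (CL1735). Their log2 ratios were -1.80 and -1.63. The mannosyltransferase CMT1 (Unigene8160) had 58.8 rescaled FPKM in the dual library, against 110.2 after interaction and 147 alone. None of the 6 genes named for the mannosyltransferase OCH1, which starts outer mannan chains in yeast, was past 2-fold, and their median was -0.14. Of the 7 genes named for beta-1,2-xylosyltransferase 1, a capsule enzyme of Cryptococcus neoformans that the list does not hold, 3 were past 2-fold downward and none upward, and they summed to 448 in the dual library, 644 after interaction and 818 alone. The mannosyltransferase of sphingolipids CL3626 was past 2-fold upward, at 241 in the dual library, 108 after interaction and 82.6 alone.

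Cell wall genes differed in both directions. Of 25 genes for chitin and glucan synthesis (median -0.54), 4 (16.0%) were past 2-fold downward and 2 upward. The downward share was 10.3% among all genes and 5.02% among those with a SwissProt name. The glucan synthase FKS1 (CL6783), which makes the main wall glucan, had 98.7 rescaled FPKM in the dual library, against 133 after interaction and 174 alone, and chitin synthase 5 (CL1093) had 122 in the dual library, 178 after interaction and 208 alone. The regulatory factor chr4 (CL460) was higher, at 53.6 rescaled FPKM in the dual library, against 14.6 after interaction and 12.5 alone. Among 26 genes for chitin and glucan breakdown, 2 were past 4-fold upward and 0 downward. At 2-fold 6 were upward and 6 downward. Among those downward, exgA (Unigene10493), a beta-1,3-glucosidase, had 286 in the dual library, 596 after interaction and 722 alone, and a chitinase-like protein (CL4786) had 232 rescaled FPKM in the dual library, against 504 after interaction and 613 alone. Of the 7 genes that share the name of CL4786, 2 were past 2-fold upward and 1 downward.

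Sterol and isoprenoid synthesis, the route to the membrane sterol ergosterol, had 5 of 20 genes (25%) past 2-fold downward, none upward and a median of -0.59. Past 2-fold downward were 10.3% of all genes and 5.02% of those with a SwissProt name. ERG13 (CL7617), an early enzyme of the route, had 109.6 in the dual library, 177 after interaction and 263 alone. ERG20 (CL8061), which makes farnesyl pyrophosphate, had 252 rescaled FPKM in the dual library, against 495 after interaction and 576 alone. The demethylase ERG11 (Unigene3016), the target of azole drugs, had 34.2 in the dual library, 65.7 after interaction and 91.00 alone (log2 ratio -1.39). In these 3 genes the value after interaction stood between those of the other two libraries. In fatty acid synthesis and desaturation (12 genes, median -0.36), none was past 2-fold downward, and the desaturase OLE1 (CL2845) was higher at 333 rescaled FPKM in the dual library, against 111 after interaction and 77.8 alone.

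**Figure D4:**
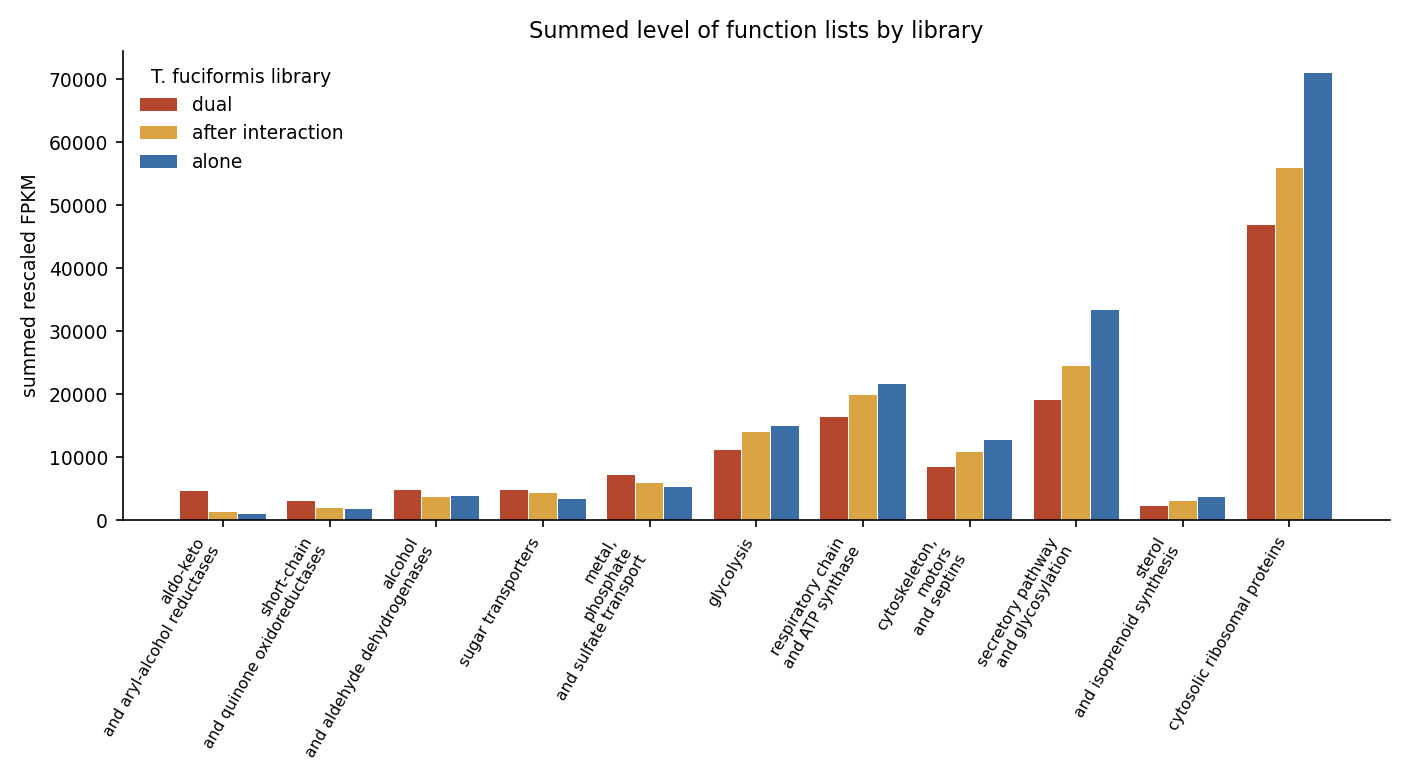
Bars give the summed rescaled FPKM of all compared members of 11 function lists in the dual library (red), after interaction (yellow) and alone (blue). Cytosolic ribosomal proteins sum to 46786 in the dual library against 70952 alone, and aldo-keto and aryl-alcohol reductases to 4702 against 1015.

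Other large decreases included genes named for the wall proteins FLO11 (CL5272, log2 ratio -2.58) and AWA1 (Unigene11191, log2 ratio -2.13). Enzymes and carriers of modest level were also among them. SOU1 (Unigene13310), a sorbose reductase, had 3.99 in the dual library, 17.7 after interaction and 35.2 alone (log2 ratio -2.86). HOR2 (Unigene2646), a phosphatase that releases glycerol, had 22.4 rescaled FPKM in the dual library, against 31.8 after interaction and 119.7 alone (log2 ratio -2.37). DIP5 (Unigene409), a permease for glutamate and aspartate, had 3.44 in the dual library, 13.9 after interaction and 31.6 alone (log2 ratio -2.88), although another DIP5 gene, Unigene11057, held the highest level of its list at 713 rescaled FPKM in the dual library, against 481 after interaction and 645 alone. Of the 45 amino acid, peptide and nitrogen transporters, 4 were past 2-fold upward and 7 downward. The choline transporter HNM1 (CL3321) was on the higher side, at 89.3 in the dual library, 52.9 after interaction and 11.2 alone.

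Mobile elements showed a few large differences in the dual library. Of 16 genes named for transposons or reverse transcriptases, 5 were past 2-fold upward, 3 of them past 4-fold, and none was past 2-fold downward. Tf2-9 (CL1008), named for an S. pombe retrotransposon, had 71.4 rescaled FPKM in the dual library, against 4.98 after interaction and 0.770 alone (log2 ratio 5.35), and Tf2-11 (CL1085) had 243 in the dual library, 21.8 after interaction and 6.76 alone (log2 ratio 4.98). The list's sum barely differed, at 2274 in the dual library, 2407 after interaction and 2309 alone, and its most abundant member, a Ty5-like element (CL134), had 1322 rescaled FPKM in the dual library, against 1849 after interaction and 1804 alone. Reads of repeated elements can be split between copies, so these levels are uncertain. The helicase pfh1 (Unigene7329) had 167 in the dual library, 5.44 after interaction and 3.69 alone.

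Regulators and signalling genes were mostly within 2-fold. Of 111 transcription regulators, 13 (11.7%) were past 2-fold upward and 5 (4.50%) downward, with a median of 0.02. The shares among genes with a SwissProt name were 9.06% and 5.02%. The nitrogen regulator nit-4 (CL1024) had 70.3 rescaled FPKM in the dual library, against 34.9 after interaction and 17.8 alone. Of 82 protein kinases, 1 was past 2-fold upward and 4 downward. Of 64 G protein, Ras and cAMP genes, none was past 2-fold upward and 1 was past 2-fold downward. Mating and meiosis genes (37 compared) had 2 past 2-fold upward and 5 downward, and the pheromone receptor BBR1 (Unigene5539) had 231 in the dual library, 309 after interaction and 286 alone.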

How the data were processed

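RNA of mycelia was extracted with Trizol and sequenced on an Illumina HiSeq, per the labels' protocols and the series' design text. The authors deposited 1 table of FPKM values for de novo assembled unigenes with Nr and SwissProt hits, per the file headers. What assembler, aligner and counter they used is not stated, nor are library totals. Depth is therefore unknown. All 5 value columns were used, and 0 were left out. No genome or sequence was used here. Each library went to its group by its label.

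From the deposited FPKM, T. fuciformis unigenes were selected, rescaled to 1000000 per library and summed by assembly cluster. A gene took the SwissProt name (e-value at most 1e-10) of its most abundant named contig. Ratios used a pseudocount of 1, which understates changes of weak genes, over genes of at least 1 FPKM in the dual library or alone. No test was run, since each group had 1 library. The arithmetic of rescaling and ratios was checked on simulated data with fold changes set in advance and no added noise. That check says nothing about the error of weak genes. Python 3 with pandas 2.3.3 and numpy 2.4.6 was used.

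The members, the 51 lists and the alternatives were chosen with earlier results of these data known. The lists are broad search words, trimmed of false matches after the table was seen, and a gene can be in several. Named genes with at least 10 FPKM were the 15 largest increases and 15 largest decreases (1 per SwissProt entry), the 10 most abundant of the dual library, and from each list the most abundant, the 2 largest increases and the 2 largest decreases; some were left out. Further genes, such as other members of a family, spn4, the tubulins, CMT1, gpi16 and PHO84, were chosen after their values were seen.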

Additional observations from a re-analysis of the deposited data

Results flagged for a closer look

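The assignment of unigenes to a fungus could not use sequences that were weak in all 4 libraries of single fungi. Of 7676 unigenes under 1 FPKM in each of these, 485 reached at least 10 FPKM in the dual library, which puts them above the level of every other library. They were not analysed in the comparisons. By the same limits, 0 unigenes had at least 10 FPKM alone or after interaction in T. fuciformis and under 1 FPKM in all other libraries, and 2 had so in each A. stygium library. These counts are not like for like, since the other library of the same fungus also had to be under 1 FPKM. Of the 8293 genes compared, 413 were listed at 0 in the dual library and 39 alone. The 485 held 2.31% of the summed FPKM of the dual library, and 418 of them had no Nr hit. Of the 65 hits with a genus, 40 lay in Tremellomycetes, 3 in Xylariales and 22 elsewhere. Among the 40 was a contig of a cluster described above, CL2569.Contig2, named for the chaperone BCS1, with 42.3 FPKM in the dual library, 0.86 after interaction and 0.74 alone. Also among the 40, but from a cluster not described above, was CL7116.Contig3, a phosphomutase-like protein. It had 44.2 FPKM in the dual library and was listed at 0 in the 4 others. Their source was not tested.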

How the results depend on the processing

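No paired analysis was possible because each group had 1 library and no test was run. No replicate could be left out for the same reason. Against 402 higher and 182 lower genes and a median of -0.18, taking contigs singly gave 708 and 506 (-0.17), no rescaling 131 and 1485 (-1.53), and rescaling without the 50 most abundant genes 437 and 241 (-0.12). A pseudocount of 0.1 gave 484 and 482 (-0.19), and one of 10 gave 180 and 12 (-0.14). A minimum of 10 FPKM gave 202 and 33 (-0.22), no minimum 425 and 182 (-0.15), and assignment on the mycelia grown alone 266 and 189 (-0.19). Assignment at 100 times gave 385 and 180 and subtraction of the A. stygium part 404 and 182, both with the same median. Thresholds of 2-fold gave 976 and 857, and of 8-fold 207 and 28. The share of higher genes among those past 4-fold was 68.8%, but 8.11% without rescaling, 50.1% at a pseudocount of 0.1 and 93.8% at 10. Of 46 named genes past 4-fold, none changed sign where it had a value, which 44 had with assignment on the mycelia grown alone and 43 with assignment at 100 times. Without rescaling 16 of them, cox17 (Unigene2284, 0.71) and the YCF1 gene CL796 (0.95) included, were no longer past 4-fold, and at a pseudocount of 10 13 were not. The median of 14 lists differed from that of all genes by at least 0.3, and none changed sign under these settings or with SwissProt e-values of at most 1e-30 or unlimited. Of their 168 values 21 fell under 0.3, 4 each at a pseudocount of 10, at a minimum of 10 FPKM and with contigs taken singly. The sugar transporter difference, 0.54, ran between 0.15 and 0.64 across settings, and that of cytosolic ribosomal proteins, -0.44, between -0.64 and -0.41. The transposon difference, 0.55, reached 2.59. The cause of these differences was not tested. Depth is unknown, so weak genes, among them most genes listed at 0 in 1 library, carry the least certain ratios, and 1 library per group leaves the spread between cultures unmeasured.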

Other observations

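Genes with no SwissProt name but with a descriptive Nr name added further functions. Of 198 such genes with at least 10 FPKM in the dual library or alone, 13 (6.57%) were past 4-fold upward and 0 downward, against 4.85% and 2.19% of all genes compared. Of all 6052 genes that reached the same minimum, 202 were past 4-fold upward and 33 downward. A glycoside hydrolase of family 55 (CL4894), a family of beta-1,3-glucanases, had 145 rescaled FPKM in the dual library, against 0.980 after interaction and 2.09 alone (log2 ratio 5.56). A copper chaperone (CL3049) had 613 in the dual library, 159 after interaction and 105 alone (log2 ratio 2.53). A glutathione S-transferase (Unigene9249) had 181 rescaled FPKM in the dual library, against 33.4 after interaction and 34.6 alone, and an oxidoreductase (Unigene14337) had 367 in the dual library, 6.13 after interaction and 3.87 alone. A riboflavin-aldehyde forming enzyme (CL5907) was high in both libraries that had met A. stygium, at 1709 rescaled FPKM in the dual library, against 2818 after interaction and 331 alone. On the lower side, a beta-carotene ketolase (CL7243), of carotenoid synthesis, had 56.03 in the dual library, 196 after interaction and 156 alone. These genes were chosen after their values were seen.

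A single gene without any hit, CL3181, had 17976 rescaled FPKM in the dual library, against 3831 after interaction and 6087 alone (log2 ratio 1.56) and was among the most abundant T. fuciformis genes of the dual library. The 10 most abundant genes held 11.9% of T. fuciformis signal in the dual library, 10.7% after interaction and 7.74% alone.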
